A study of Homo sapiens with 8 samples.

Results

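The smORFs described here lie in genes named for the initiation and elongation factors of cytosolic translation. They are small open reading frames of up to 150 amino acids, annotated by Ribo-Seq, a method that reads the stretches of RNA shielded from nuclease by ribosomes. They were chosen by the symbol of the host gene: any symbol that began with EIF or EEF followed by a digit was taken. Of 101 smORFs with such a symbol, 2 that also carried a small nucleolar RNA symbol and 2 in pseudogenes were left out. This left 97 of the 24199 smORFs counted, in 30 host genes. The symbols also took in genes that do not encode a factor, such as the kinases EIF2AK2, EIF2AK3 and EEF2K. Of the 97, 83 lay in genes of the factors themselves. None of the counts entered the choice.

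Counts came from Caco-2, a cell line from a human colon adenocarcinoma whose cells resemble absorptive enterocytes once differentiated. There were 8 libraries in 4 groups of 2, and no genetic change separated the groups. Undifferentiated cells formed the first group and differentiated cells without further treatment the second (differentiated control). The third group was differentiated and given micelles of taurocholate, a bile salt, without lipid, and the fourth was differentiated and given lipid micelles with oleic acid, cholesterol and BSA. All cells received cycloheximide, which stalls elongating ribosomes, in the wash and the lysis buffer. Nothing in the labels says that the replicates came from separate cultures, so p-values measure the spread between these libraries, which may be technical. A lower count can come from fewer messengers, fewer ribosomes on each of them or another mix of transcript forms, and these cannot be told apart from ribosome footprints alone.

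Initiation factors bring the initiator tRNA and the small ribosomal subunit to a messenger and find its start codon, and elongation factors then deliver each aminoacyl-tRNA and move the ribosome along. Several of these genes carry uORFs, reading frames in the 5′ untranslated region that a scanning ribosome meets before the main coding sequence. A dORF lies in the 3′ untranslated region, past the stop codon of the host gene. Start codon choice depends on the bases around the codon, with a purine 3 bases before it and a G right after it taken as the strong context.

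Of the 97 smORFs, 79 (81.4%) were uORFs, against 69.9% of all smORFs, and 13 (13.4%) were dORFs, against 6.60%. The other 5 were 4 smORFs in non-coding transcripts and 1 intragenic smORF. They were short, with a median of 20 amino acids against 31. ATG was the first codon of 29 (29.9%), against 43.4% of all smORFs, and 6 of these 29 (20.7%) had the strong context, against 20.8% of all ATG smORFs. A codon 1 base away from ATG came first in 12 (12.4%), against 9.16% of all smORFs. The rest began on other codons, and whether translation starts at these was not tested. A mean PhyloCSF score above 0, where the alignment of species resembles a conserved coding sequence, was given to 8 (8.25%), against 1.75% of all smORFs. These were 7 uORFs in EIF4G1 and 1 in EIF5B. Repeats overlapped 10.3% of them, against 39.7%. Many shared reads: smORFs that overlapped on the same strand were joined, and the 97 fell into 45 clusters.

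A transcript of the host gene in GENCODE held 81 of the 97. The 68 that lay before the coding sequence ended between 2 and 560 bases upstream of it (median 58.5, the stop codon of the smORF included). The 13 dORFs began 3 to 581 bases past the last coding codon (median 48). In EEF2, which encodes the factor that moves the ribosome by 1 codon, and in EIF6, which keeps the large subunit from joining too early, a dORF began on the codon right after the host stop codon and in its frame. The first codons of these dORFs were GCG and GTC, not ATG, and whether translation starts there was not tested. Other smORFs without an ATG start, such as IEC_11060 of EIF3K, also began right after a stop triplet.

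The contexts below surround the first codon of smORFs on which the results turn, whether or not translation starts at that codon. Each line gives 10 bases before the first codon, that codon in capitals and 17 bases after it, 5′ to 3′ on the strand of the gene in hg38. The first 4 had higher counts after differentiation, and all 4 began with ATG. The next 6 had lower counts, and among them only those of EIF2S1, EIF5B and EIF3B began with ATG. In EIF4G1 and EIF3D, however, the overlapping IEC_02945 and IEC_13040 began with ATG and were also called lower. The first codon shown for these genes thus depends on the smORF printed. The last 3 carried the highest mean counts of their role groups without a called change.
EIF1 IEC_01957, dORF, chr17:41690999-41691067, plus strand: gaaaagagccATGctgtctagtcttgaagt
EIF1 IEC_01960, dORF, chr17:41691405-41691446, plus strand: tagctaagggATGtccaaacatcagaatgt
EIF1B IEC_00369, dORF, chr3:40312086-40312211, plus strand: gccttgtgaaATGattccctgcagtaaacg
EEF1A1 IEC_22919, uORF of 2 exons, chr6:73520051-73520670, minus strand: agtcttgtaaATGcgggccaagatctgcac
EIF4G1 IEC_04461, uORF, chr3:184314567-184314659, plus strand: gcgcctgcggAGAagcggtggccgccgagc
EIF5A IEC_10199, uORF, chr17:7307602-7307631, plus strand: ggctgcttggTTGgtcagtggggagtcggc
EIF2S1 IEC_00643, uORF, chr14:67360328-67360402, plus strand: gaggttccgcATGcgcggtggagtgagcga
EIF3D IEC_19575, uORF, chr22:36529059-36529184, minus strand: ggcggcgcccGCTgcgcgcgcatgtttcct
EIF3B IEC_12715, uORF, chr7:2354710-2354838, plus strand: tatcagtttgATGattttcgggcgcggtct
EIF5B IEC_01462, uORF, chr2:99337396-99337467, plus strand: ctcacaccatATGtgtcctgttccagtgcg
EIF4G2 IEC_15715, uORF, chr11:10808857-10808904, minus strand: tcggagctctATGgaggtggcagcgggtac
EIF5 IEC_09783, uORF of 2 exons, chr14:103334576-103335836, plus strand: cgttgggtttATGtctttatttgacgaaaa
EEF2K IEC_00884, uORF of 2 exons, chr16:22206279-22225678, plus strand: cccgcttctgCTCaacctagaccagcccca

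Library totals ran from 506382 to 884711 smORF counts, and 3 counts were worth 3.49 to 5.86 CPM, that is, counts scaled to a common library total. Most marker smORFs went with the labels: of 18 enterocyte marker smORFs tested 12 were higher and 1 was lower after differentiation, and of 23 proliferation marker smORFs 22 were lower and 0 higher. Each list came from 7 genes, so these smORFs are not separate markers. Many of the higher ones were dORFs of CDX2, and 36.4% of all dORFs tested were called higher. The lower one was a uORF of APOA1 (-1.43), and the HNF4A uORFs were at -0.74 and -0.52, not called. Most proliferation calls lay in CDK1, AURKA and MCM5. The fibroblast list summed to 55.1 and 99.0 CPM in the undifferentiated libraries and to 0 to 4.66 CPM in the others, and both of its smORFs tested, in PDGFRA, were lower. The haematopoietic list had 1 smORF, at 0 in every library. The part of these differences in the results below was not tested.

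The 97 smORFs together held a larger share of the smORF counts before differentiation than after it. Undifferentiated cells gave 0.557% ± 0.00286 (SD, n = 2) and the differentiated controls 0.392% ± 0.00351. The share was 0.370% ± 0.00652 after micelles without lipid and 0.369% ± 0.0186 after lipid micelles. Both undifferentiated libraries (0.559% and 0.555%) lay above all 6 differentiated libraries, which ran from 0.356% to 0.394%. With 1 smORF per cluster the shares were 0.598% ± 0.00941 and 0.498% ± 0.00286 in undifferentiated and control cells. With 2 libraries against 2, an exact permutation test cannot reach 0.05, so none is given.

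Counts were spread unevenly over the host genes. EIF4G2, which encodes a relative of the scaffold eIF4G that lacks the part binding the cap-binding protein, held 16.8% of the counts of the 97 smORFs. EIF1AD held 11.7%, EIF3K 9.97% and EIF5 9.08%. These sums repeat the reads of overlapping smORFs, and with 1 smORF per cluster EIF4G2 held 21.8%, EIF5 16.4%, EEF1B2 11.4%, EIF1AD 5.57% and EIF3K 4.39%. Per 100 bases the level was 1100 CPM in IEC_15715 of EIF4G2 and 511 CPM in IEC_09783 of EIF5, against a median of 65.5 CPM over the 70 smORFs that passed the filter on low counts. The 27 that did not pass held 4 to 59 counts over all libraries (median 27), and 9 host genes had no smORF past the filter: EEF1E1, EIF2AK2, EIF2AK3, EIF2B3, EIF2B5, EIF2D, EIF3E, EIF4A2 and EIF4G3.

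To see how differentiation bore on these smORFs, the control libraries were set against the undifferentiated ones in edgeR's quasi-likelihood fit of 15182 smORFs, with a change called at an adjusted p under 0.05 and a log2 fold change of at least 1 in size. Counts of many uORFs in factor genes were lower after differentiation, led by the nested uORFs of EIF4G1 and the uORF of EIF5A, and those of dORFs in EIF1 and EIF1B were higher. Of the 70 smORFs tested, 25 (35.7%) were called lower and 4 (5.71%) higher. Among all smORFs tested, 15.6% were called lower and 17.7% higher. The median log2 fold change was -0.85 for the 70 and 0.01 for all smORFs. The 29 calls fell in 16 clusters and 14 host genes, since overlapping smORFs repeat the same reads. In a fit with 1 smORF per cluster, 9 of 29 were called lower (background 15.7%) and 4 higher (background 19%), with a median of -0.36.

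The filter on low counts bears on these numbers. The 4 smORFs called higher passed it without the undifferentiated libraries, and 5 of the 25 called lower passed it through the undifferentiated libraries. Among the 40 smORFs with 10 counts or more in every library, 8 were called lower (background 11%) and 0 higher (background 12.6%), in EIF2S1, EIF3A, EIF3D, EIF4G1 and EIF5A, with a median of -0.62. Fewer were called without the second control library or without the first undifferentiated library, as was so among all smORFs. Either fit leaves 1 library in that group. DESeq2 called 19 of the 70, all among the 29, against 3301 of all 15182 smORFs tested.

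**Figure D1:**
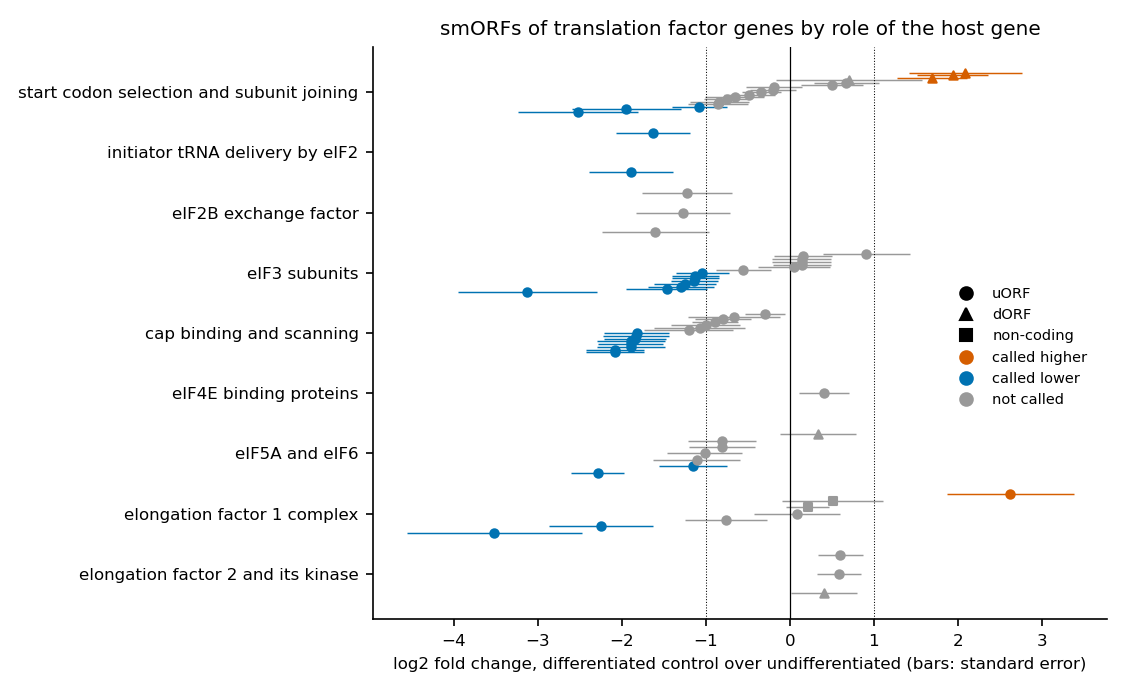
Log2 fold change of differentiated control over undifferentiated cells (x axis, with standard error) for the 70 smORFs tested, by role of the host gene (y axis); circles are uORFs, triangles dORFs and squares smORFs in non-coding transcripts, with called changes in colour and dotted lines at -1 and 1. All called changes of the eIF3, eIF2 and cap binding groups lie left of 0, and the 3 called dORFs lie right of it.

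Location class went with direction. Of the 62 uORFs tested, 25 (40.3%) were called lower and 1 higher, against 18.8% and 10.9% of all uORFs tested, and their median log2 fold change was -1.03, against -0.21. Of the 6 dORFs tested, 3 were called higher and 0 lower, against 36.4% and 2.73% of all dORFs tested, and their median was 1.20, against 0.95. These 6 lay in EIF1, EIF1B, EEF2 and EIF6, and the called ones were in EIF1 and EIF1B. The 2 smORFs tested in non-coding transcripts, both in EEF1B2, were not called.

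**Figure D2:**
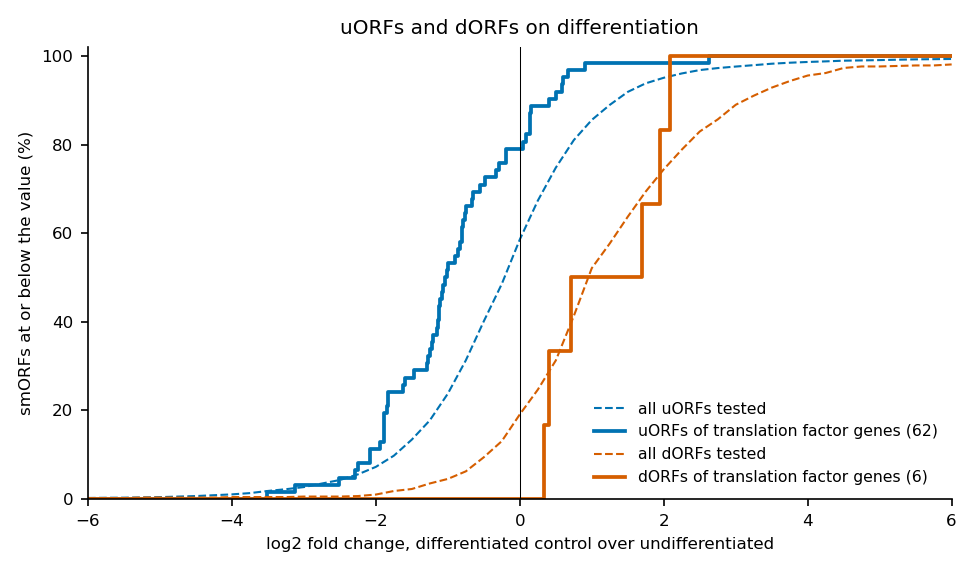
Share of smORFs (y axis, %) at or below each log2 fold change of differentiated control over undifferentiated cells (x axis). Solid steps are the 62 uORFs and 6 dORFs tested in the host genes chosen, and dashed lines are all uORFs and dORFs tested. The uORF steps lie left of their dashed line over most of the range, with medians of -1.03 and -0.21, while the dORF steps cross theirs.

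All 6 differentiated libraries were also set against the same 2 undifferentiated ones, so this is no independent support. Both undifferentiated libraries lay above all 6 differentiated libraries in CPM for 34 of the 70 smORFs (48.6%), against 25.8% of all smORFs tested, and below all 6 for 6 (8.57%), against 26.7%. The 6 were the uORF pair of EEF2K, the uORF IEC_22919 of EEF1A1, IEC_01957 and IEC_01960 of EIF1 and the dORF of EIF1B. Of the 34, 7 passed the filter on low counts only through the undifferentiated libraries, and of the 6, 4 only through the differentiated ones. The 34 also repeat reads: they included all 10 smORFs of 1 EIF4G1 cluster and all 5 of 1 EIF3D cluster.

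In the cap binding and scanning group, only EIF4G1 and EIF4G2 had smORFs past the filter. The scaffold encoded by EIF4G1 holds the cap-binding protein and the helicase together and brings in the small subunit. Its relative encoded by EIF4G2 lacks the part binding the cap-binding protein. Of 15 uORFs tested in EIF4G1 and EIF4G2, 8 were called lower and 0 higher, with a median log2 fold change of -1.82. Among all uORFs tested, 18.8% were called lower and 10.9% higher. With 1 smORF per cluster, 1 of 2 was called lower and the median was -1.19. All 8 lay in EIF4G1 and in 1 cluster within 1 region of its 5′ untranslated sequence, and several had nearly the same counts, so they are close to 1 measurement. The longest, IEC_04461 (31 codons), had 151 and 174 CPM in undifferentiated cells, 39.1 and 37.7 in control cells, 38.1 and 27.7 with micelles without lipid, and 32.7 and 12.8 with lipid micelles. The undifferentiated libraries thus stood apart from all others. It fell by 2.08 on the log2 scale (SE 0.35, adjusted p = 0.000208), a 4.22-fold difference, and the call held under each of the 16 alternatives that tested it.

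Within the same EIF4G1 region, IEC_02945 (chr3:184314610-184314669) was the ATG smORF, with a PhyloCSF score of 1.76 and the strong context, and it is named here after its values were seen. It had 84.4 ± 3.79 CPM in undifferentiated and 22.5 ± 1.35 CPM in control cells (SD, n = 2), and it fell by 1.89 on the log2 scale (SE 0.38, adjusted p = 0.00112). IEC_05685, also an ATG uORF, lay farther downstream and missed the call, with 37.7 and 58.6 CPM in undifferentiated and 29.3 and 19.5 CPM in control cells (adjusted p = 0.0621). The 8 smORFs with a PhyloCSF score above 0, all tested, were all called lower, against 10.8% of all smORFs tested with such a score. However, 7 of them are this overlapping EIF4G1 set, and only 2 host genes are represented.

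EIF4G2 held the highest level and no called change. IEC_15715 had 570 and 700 CPM in undifferentiated cells, 536 and 501 in control cells, 466 and 500 with micelles without lipid and 508 and 441 with lipid micelles. Both undifferentiated libraries were above the other 6, but the log2 fold change was only -0.29 (SE 0.24, adjusted p = 0.347). The 5 EIF4G2 smORFs tested had log2 fold changes between -1.07 and -0.29, and 0 were called. IEC_21256, which begins at the same base as IEC_15715 and continues into a second exon, came closest, at -0.90 (SE 0.27, adjusted p = 0.0169), short of the fold threshold. It crossed that threshold without the first undifferentiated library (-1.02, adjusted p = 0.0334) or the first control library (-1.03, adjusted p = 0.0383).

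The eIF2 group carries the initiator tRNA. Of its genes, only EIF2S1, which encodes the alpha subunit that stress kinases phosphorylate, had smORFs among the 97. The 2 tested, both uORFs in 1 cluster, were called lower, where 18.8% of all uORFs tested were. IEC_00643 had 48.7 and 81.7 CPM in undifferentiated cells, 29.3 and 14.3 in control cells, 21.8 and 23.5 with micelles without lipid and 29.7 and 15.1 with lipid micelles. Every differentiated library was below both undifferentiated ones. It fell by 1.63 on the log2 scale (SE 0.44, adjusted p = 0.0085), and the overlapping IEC_00645 fell by 1.89 (SE 0.50, adjusted p = 0.00757). Neither call held without the second undifferentiated library (-1.20 and -1.51, adjusted p = 0.105 and 0.0833) or without the second control library (-1.10 and -1.46, adjusted p = 0.138 and 0.101).

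EIF2B2 encodes a subunit of eIF2B, the factor that recharges eIF2 with GTP. Its 3 smORFs tested, all in 1 cluster, had log2 fold changes from -1.60 to -1.22 and were not called. IEC_01083 had 18 and 13 counts in undifferentiated and 6 and 8 in control cells, a log2 fold change of -1.22 (SE 0.54, adjusted p = 0.0828). The kinases of eIF2 alpha, EIF2AK2 and EIF2AK3, had 1 uORF each, at 0 to 11 counts a library, too few to test.

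The eIF3 complex holds the initiation machinery on the small subunit. Of 15 uORFs tested in its genes, 8 were called lower and 0 higher (median -1.04). Among all uORFs tested, 18.8% were called lower and 10.9% higher. The 8 were 5 overlapping uORFs in EIF3D, 2 in EIF3A and 1 in EIF3B. With 1 smORF per cluster, 3 of 5 were called lower. In EIF3D, whose product also binds the cap of some messengers, IEC_19575 had 192 and 140 CPM in undifferentiated cells, 80.2 and 71.5 in control cells, 50.8 and 47.0 with micelles without lipid and 47.5 and 58.2 with lipid micelles. The control libraries lay between the undifferentiated and the micelle libraries. On differentiation it fell by 1.14 on the log2 scale (SE 0.28, adjusted p = 0.00455). The call was lost without the first undifferentiated library (-0.89, adjusted p = 0.067) and without the second control library (-1.01, adjusted p = 0.0607). The overlapping IEC_19552 was also called lower (adjusted p = 0.00486) and lost its call without the same libraries (-0.87 and -1.01, adjusted p = 0.0701 and 0.0607).

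In EIF3A, the largest subunit of the complex, IEC_16744 had 66.0 and 51.5 CPM in undifferentiated and 31.3 and 18.2 CPM in control cells, and 18.1 to 38.4 CPM in the 4 micelle libraries. It fell by 1.29 on the log2 scale (SE 0.40, adjusted p = 0.0172), and IEC_16745 inside it by 1.47 (SE 0.48, adjusted p = 0.0249). Both calls were lost without the first undifferentiated library (-1.09 and -1.22, adjusted p = 0.117 and 0.161), without the second control library (-0.87 and -0.82, adjusted p = 0.214 and 0.309) and with DESeq2 (adjusted p = 0.0756 and 0.128).

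EIF3B and EIF3K did not follow that pattern throughout. In EIF3B, a core subunit, IEC_12715 fell from 11 and 15 counts in undifferentiated to 1 and 2 in control cells, a ratio of 9.26 (exact Clopper-Pearson interval for counting error 2.84 to 47.8, adjusted p = 0.00759). Its neighbour IEC_03403, 17 bases before the coding sequence, went from 8 and 9 counts to 16 and 18 (log2 fold change 0.91, SE 0.52, adjusted p = 0.178). The IEC_12715 call was lost without the second undifferentiated library (-2.78, adjusted p = 0.0999) or either control library (-2.94 and -3.32, adjusted p = 0.0609 and 0.0764). The 6 uORFs of EIF3K, a small outer subunit, had log2 fold changes from -0.55 to 0.16 and 0 calls. IEC_11060, at 120 ± 19.1 CPM in undifferentiated and 80.4 ± 33.5 CPM in control cells (SD, n = 2), had -0.55 (SE 0.32, adjusted p = 0.192).

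Of 17 smORFs tested in genes for start codon selection and subunit joining, 3 were called higher and 3 lower (median -0.34). These shares of 17.6% each were close to the 17.7% and 15.6% of all smORFs. However, 7 of the 17 were overlapping uORFs of EIF1AD, not an initiation factor in the strict sense, and 1 of these was called lower. With 1 smORF per cluster, 3 of 9 were called higher (33.3%) and 2 lower (22.2%). EIF1 encodes the factor that keeps the scanning complex from settling on a wrong codon, and all 4 of its smORFs were dORFs in separate stretches of the 3′ untranslated region. IEC_01957, 175 bases past the coding sequence, had 9.43 and 12.4 CPM in undifferentiated cells, 43 and 41.6 in control cells, 39.9 and 47.0 with micelles without lipid and 52.0 and 44.2 with lipid micelles. The 2 sets of libraries did not overlap. The log2 fold change was 1.94 (SE 0.42, adjusted p = 0.00192), and the call held in each of the 15 alternatives that tested it.

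IEC_01960, 581 bases past the coding sequence of EIF1, also passed the filter on low counts only through the differentiated libraries. With 8 and 0 counts in undifferentiated and 14 and 23 in control cells, its log2 fold change was 2.09 (SE 0.68, adjusted p = 0.0226). Without the second undifferentiated library, the one at 0, it was 1.20 (adjusted p = 0.151), and without the second control library 2.06 (adjusted p = 0.0731). IEC_01959 between them was not called, at 0.71 (SE 0.87, adjusted p = 0.553), with 0 and 8 counts against 8 and 6.

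EIF1B, a paralogue of EIF1, held a uORF cluster with log2 fold changes below 0, not called, and a dORF that was called higher. The dORF IEC_00369 had 29.9 and 8.89 CPM in undifferentiated cells, 62.6 and 66.3 in control cells, 79.8 and 60.8 with micelles without lipid and 50.5 and 52.4 with lipid micelles. All differentiated libraries exceeded both undifferentiated ones, but the dORF passed the filter on low counts only through the differentiated ones. The log2 fold change was 1.70 (SE 0.42, adjusted p = 0.00467). Without the second undifferentiated library it was 1.13 (adjusted p = 0.0644). The uORF IEC_00368 had 62.9 and 76.4 CPM in undifferentiated and 39.1 and 37.7 CPM in control cells, a log2 fold change of -0.85 (SE 0.35, adjusted p = 0.0653). In GENCODE the dORF lies inside the coding sequence of a separate gene, ENSG00000291315, and counts cannot tell the 2 annotations apart.

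EIF5 encodes the factor that makes eIF2 hydrolyse its GTP at the start codon, and EIF5B the factor that joins the subunits. In EIF5, IEC_00156, which ends 399 bases before the coding sequence, had 86.4 and 114 CPM in undifferentiated, 43 and 50.7 in control, 48.9 and 84.3 in micelle without lipid and 81.7 and 80.3 CPM in lipid micelle libraries. It fell by 1.08 on the log2 scale on differentiation (SE 0.32, adjusted p = 0.0158), and the undifferentiated libraries overlapped none of the others. The fall was smaller without the second undifferentiated library (-0.85, adjusted p = 0.124) or the first control library (-0.93, adjusted p = 0.101), and without the second control library it was -1.17 (adjusted p = 0.0633). With 10 counts required in every library it was -0.99, short of the fold threshold, and DESeq2 gave -1.10 (adjusted p = 0.0539).

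The second uORF of EIF5, IEC_09783, ends 24 bases before the coding sequence, and it had 412 ± 55 CPM in undifferentiated and 326 ± 32.2 CPM in control cells (SD, n = 2). Its log2 fold change was -0.34 (SE 0.24, adjusted p = 0.278). Both EIF5 uORFs lie in exons of ENSG00000291313, a separate GENCODE gene, and IEC_09783 wholly in its coding sequence. In EIF5B, IEC_01462 had 14 and 20 counts in undifferentiated, 5 and 1 in control and 1 to 4 in the micelle libraries, and it fell by 2.52 on the log2 scale (SE 0.72, adjusted p = 0.0112). Without the second control library the value was -1.49 (adjusted p = 0.192), without the second undifferentiated library -2.11 (adjusted p = 0.141) and with DESeq2 -2.51 (adjusted p = 0.0546).

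EIF1AD is a gene with an eIF1A-like domain and not an initiation factor in the strict sense, and leaving out such genes gave 28 calls among 60 smORFs. Its 7 uORFs, all in 1 cluster over 2 exons, had log2 fold changes from -1.94 to 0.67. IEC_14924 was called lower, with 15 and 11 counts against 3 and 4 (-1.94, SE 0.65, adjusted p = 0.0267), but this was lost when any of those 4 libraries was left out (-2.05 to -1.79, adjusted p from 0.0889 to 0.176) and with DESeq2 (-1.99, adjusted p = 0.121). The spliced IEC_21282 had in each library, within 2 counts, the sum of its first-exon part IEC_21089 and its second-exon part IEC_21088, so counting followed the exons. It had 101 and 78 counts against 53 and 118 and was not called (-0.20, SE 0.27, adjusted p = 0.606).

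The eIF5A and eIF6 group held the uORF with the smallest adjusted p of all 70. eIF5A helps ribosomes past stretches that are slow to translate. IEC_10199, of 10 codons from TTG, had 127 and 139 CPM in undifferentiated cells, 23.5 and 29.9 in control cells, 30.8 and 30.4 with micelles without lipid and 28.2 and 32.6 with lipid micelles. The 6 differentiated libraries lay close together and far below the other two. It fell by 2.29 on the log2 scale (SE 0.32, adjusted p = 3.39e-05), a 4.88-fold difference, and each of the 16 alternatives that tested it kept the call. EIF6 had 1 call among 6 smORFs, the uORF IEC_17129 at -1.16 (SE 0.41, adjusted p = 0.0332), lost without the second undifferentiated library (-0.70, adjusted p = 0.306) or either control library (-1.22 and -0.98, adjusted p = 0.0814 and 0.188), with DESeq2 (-1.18, adjusted p = 0.102) and with 10 counts required in every library (-1.07, adjusted p = 0.0558). The EIF6 dORF that follows the stop codon had 0.34 (SE 0.46, adjusted p = 0.595).

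**Figure D3:**
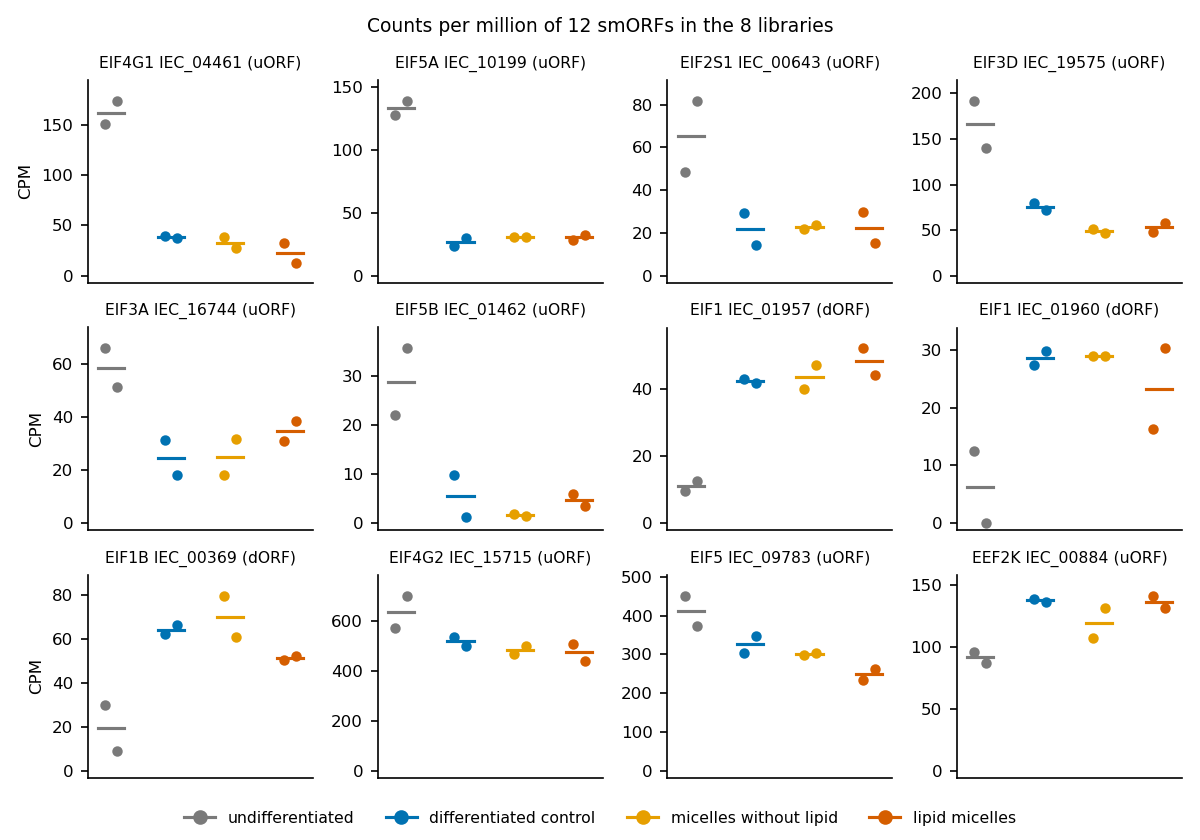
CPM (y axis) of 12 smORFs in the 8 libraries, 1 panel each; points are libraries, coloured by group, and short lines are group means of 2. The first 6 panels have both undifferentiated libraries above all others, and the 3 dORF panels of EIF1 and EIF1B have them below all others. These 3 dORFs passed the filter on low counts only through the differentiated libraries, and the EIF5B uORF only through the undifferentiated ones.

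The eEF1 complex delivers aminoacyl-tRNA to the ribosome, and of 7 smORFs tested in its genes 1 was called higher and 2 lower (median 0.09), against 17.7% and 15.6% of all smORFs. In EEF2 and EEF2K 0 of 3 were called. EEF1A1, the delivering factor itself, had both directions at low counts. IEC_22919, over 2 exons of its 5′ part, had 2 and 1 counts in undifferentiated and 8 and 13 in control cells, a ratio of 6.55 (exact interval 1.96 to 34.3, adjusted p = 0.0122). IEC_14820, nearly all of it inside IEC_15042, had 10 and 14 counts against 2 and 0, a ratio of 12.8 (exact interval 3.18 to 112, adjusted p = 0.0146). EEF1A1 has many processed copies in the genome, and how reads with several matches were counted is not given in the sources used here, so these counts are uncertain.

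Neither EEF1A1 call was stable. The value of IEC_22919 was 3.08, 2.33 and 2.59 on the log2 scale without the first undifferentiated, second undifferentiated and second control library (adjusted p = 0.0531, 0.0839 and 0.081). That of IEC_14820 was -3.80, -3.13 and -2.27 (adjusted p = 0.0541, 0.14 and 0.202), and DESeq2 called neither (adjusted p = 0.0729 and 0.0579). In EEF1D, an exchange factor of the complex, IEC_15091 fell from 19 and 17 counts to 2 and 6, by 2.25 on the log2 scale (SE 0.62, adjusted p = 0.00944). Without the first undifferentiated, second undifferentiated or first control library the adjusted p was 0.0531, 0.0509 and 0.0636 (log2 fold changes of -2.25, -2.23 and -1.87).

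In EEF1B2, another exchange factor, IEC_06780 of the non-coding class had 222 and 187 CPM in undifferentiated and 250 and 224 CPM in control cells, and 162 to 231 CPM in the micelle libraries. The groups overlapped, and the log2 fold change was 0.21 (SE 0.26, adjusted p = 0.553). EEF2K encodes the kinase that slows elongation by phosphorylating eEF2. Its uORF IEC_00884 (142 codons) had 95.9 and 87.1 CPM in undifferentiated and 139 and 137 CPM in control cells, with 107 to 141 CPM in the micelle libraries. The libraries did not overlap, but the difference missed the call, at 0.59 (SE 0.26, adjusted p = 0.0906). The EEF2 dORF that follows the stop codon had 19 and 13 counts against 15 and 31 (0.41, SE 0.39, adjusted p = 0.434). EIF4EBP2, a repressor that holds the cap-binding protein, had 1 uORF tested, IEC_03959, at 0.41 (SE 0.30, adjusted p = 0.297).

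Genes known for messengers with a terminal oligopyrimidine tract, a 5′ element that ties translation to growth signals, gave 8 smORFs tested in EEF1A1, EEF1B2, EEF1D and EEF2. Of these 1 was called higher and 2 lower, where 17.7% and 15.6% of all smORFs were called, and the median was 0.15, against 0.01. The lower ones were in EEF1A1 and EEF1D and the higher one in EEF1A1.

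Within some host genes the balance between smORFs moved with differentiation, and these pairs were chosen after their values were seen. For EIF1B, the dORF had 0.475 and 0.116 times the counts of the uORF IEC_00368 in the undifferentiated libraries and 0.708 to 1.76 times in the 6 differentiated ones. For EIF1AD, the second-exon part had 0.286 and 0.226 times the counts of the first-exon part, against 0.472 to 1.05 after differentiation. For EEF1A1, IEC_22919 had 0.087 and 0.067 times the counts of IEC_15042, against 0.318 to 1.29. For EIF3B, IEC_03403 had 0.727 and 0.600 times the counts of IEC_12715, against 2 to 21. In each of these 4 pairs the undifferentiated libraries lay below all others. The choice of pairs fixes part of this, since IEC_12715 passed the filter on low counts only through the undifferentiated libraries, and IEC_03403, IEC_22919 and IEC_00369 only through the differentiated ones. The EIF1AD parts passed in both. In the other pairs computed the libraries overlapped: the ratio of IEC_00156 to IEC_09783 in EIF5 was 0.192 and 0.305 against 0.142 to 0.350, and that of IEC_15714 to IEC_15715 in EIF4G2 was 0.047 and 0.069 against 0.026 to 0.124.

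**Figure D4:**
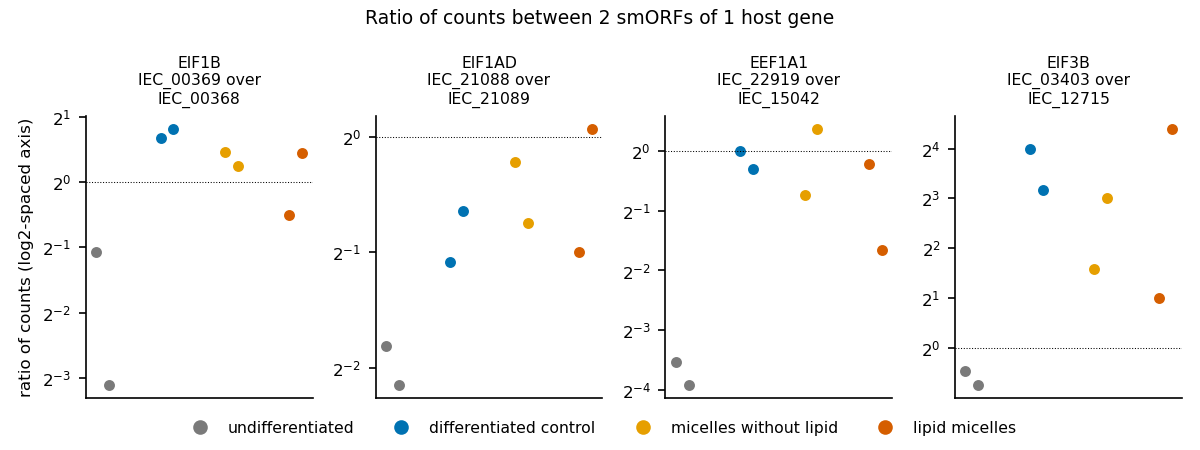
Ratio of counts between 2 smORFs of the same host gene (y axis, log2-spaced) in each of the 8 libraries, for EIF1B, EIF1AD, EEF1A1 and EIF3B; points are libraries, coloured by group, and the dotted line marks equal counts. The undifferentiated libraries are the 2 lowest in every panel, for example 0.475 and 0.116 in EIF1B.

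Other genes of the pathway were counted for comparison. Of 8 smORFs tested in termination and recycling genes, 4 were called lower and 0 higher (median -1.29), namely 3 uORFs of PELO, which rescues stalled ribosomes, and 1 of ABCE1, which splits the subunits. Of 36 in genes for poly(A) binding and for regulators of initiation, 10 were called lower and 2 higher (median -0.01). The lower ones included 6 uORFs of PABPC4, a poly(A) binding protein, and both higher ones lay in PDCD4, an inhibitor of the helicase eIF4A. Their log2 fold changes were 3.55 (SE 0.84, adjusted p = 0.00358) for its dORF and 2.37 (SE 0.88, adjusted p = 0.0426) for its uORF IEC_04588. The other PDCD4 uORFs tested, IEC_06341, IEC_06342, IEC_04587 and IEC_01308, were at 0.78 to 0.86 and not called. Of 19 in mitochondrial translation factor genes, 3 were called lower and 0 higher (median -0.19). These stand beside the 15.6% and 17.7% of all smORFs called lower and higher.

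Micelle treatment of differentiated cells gave no called change. With micelles without lipid against control, 0 of the 70 smORFs were called (background 0%), and 2 had an unadjusted p under 0.05 (background 4.08%). With lipid micelles against control, 0 were called (background 0%) and 1 had an unadjusted p under 0.05 (background 4.66%). With lipid micelles against micelles without lipid, 0 were called (background 0%) and 0 had an unadjusted p under 0.05 (background 4.11%). DESeq2 called 0 of the 70 in each as well. With the replicate number as a block, 0 of 65 were called in each, while 15, 1 and 14 of 14360 smORFs were called in the same order of comparisons. The medians over the 70 were 0.05, -0.03 and -0.001, against 0.01, 0.00 and -0.01 over all smORFs. The comparisons share libraries and are not independent.

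The smORFs with the smallest unadjusted p in these comparisons all kept an adjusted p above 0.9 without the block. For EIF4G1, IEC_05685 had 29.3 and 19.5 CPM in control cells, 9.06 and 8.30 CPM with micelles without lipid and 10.4 and 14.0 CPM with lipid micelles. All 4 micelle libraries were below both controls, with log2 fold changes of -1.44 (SE 0.52, unadjusted p = 0.0129) and -0.94 (SE 0.47, unadjusted p = 0.0629). For EIF4G2, IEC_15714 had 23.5 and 13.0 CPM in control cells and 18.1 and 62.2 CPM with micelles without lipid, so 1 library set its log2 fold change of 1.24 (SE 0.53, unadjusted p = 0.031). Its overlapping IEC_17815 had 0.68 (SE 0.33, unadjusted p = 0.055), and IEC_19552 of EIF3D had -0.64 (SE 0.31, unadjusted p = 0.0509).

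With lipid micelles, IEC_00156 of EIF5 was higher than in control cells by 0.78 (SE 0.32, unadjusted p = 0.0278), with 81.7 and 80.3 CPM against 43 and 50.7, and so lay between the control and the undifferentiated level. IEC_04461 and IEC_05297 of EIF4G1, which have the same counts, gave -0.80 (SE 0.41, unadjusted p = 0.0692). Between the 2 kinds of micelles, IEC_16745 of EIF3A had 1.10 (SE 0.57, unadjusted p = 0.0694) and IEC_21256 of EIF4G2 -0.42 (SE 0.27, unadjusted p = 0.143). IEC_15091 of EEF1D had -1.03 (SE 0.71, unadjusted p = 0.162) and IEC_15714 of EIF4G2 -0.70 (SE 0.48, unadjusted p = 0.166). With 2 libraries a group, even the log2 fold change of -1.44 in IEC_05685 could not be told from the spread once p-values were adjusted in the fit without the block.

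**Figure D5:**
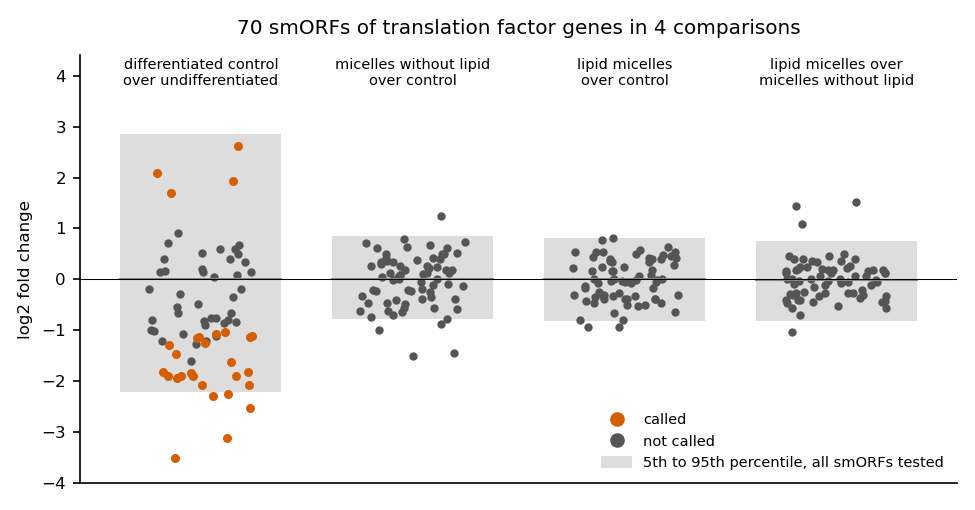
Log2 fold change (y axis) of the 70 smORFs in the 4 comparisons (columns); points are smORFs, coloured where called, and grey bands span the 5th to 95th percentile of all smORFs tested with their median as a line. Called smORFs appear in the differentiation column alone, where the median of the 70 is -0.85.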

How the data were processed

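Ribo-Seq libraries of Caco-2 cells were grouped and numbered by their labels. The authors aligned reads to hg38 with STAR (2.7.11a per the submitters' processing notes), assembled transcripts with StringTie, kept open reading frames of at most 150 amino acids with a RibORF score of at least 0.7, and deposited raw counts per smORF made with HOMER, without normalization. The authors also deposited a mean PhyloCSF score, the RibORF score, the length and the location class of each smORF. The strand and multi-mapping settings of the counting are not given in the sources used here, and counts of overlapping smORFs repeat reads. The genome sequence at the exons was identical to the deposited sequence for all 97 smORFs. GENCODE 44 gave positions, and start contexts were read from hg38.

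Counts were filtered with filterByExpr, scaled by TMM and tested with edgeR 4.0.16 (R 4.3.3) by a quasi-likelihood fit with a term per group over all 8 libraries, with two-sided p-values adjusted by Benjamini-Hochberg over 15182 smORFs. SE is the log2 fold change divided by the root of the F statistic. The filter limit was 14.5 CPM in 2 libraries. Ratios with 3 counts or fewer in each library of a group carry exact Clopper-Pearson intervals (95%), which cover counting error only. DESeq2 1.42.0, other scalings, filters, fits and left-out libraries served as alternatives. Tables were handled in pandas 2.3.3 under Python 3.11.15, intervals came from scipy 1.17.1, sequences from pysam 0.24.0 and plots from matplotlib 3.10.9.

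Whether replicate numbers pair libraries was checked by correlating their deviations from group means. The correlation was 0.198 for control with micelles without lipid, 0.119 for control with lipid micelles and 0.109 between both micelle groups, so these were taken to be paired. Undifferentiated libraries correlated with them at -0.065 to 0.021 and were taken to be unpaired. Printed values come from the fit without the block, and the fit with the replicate number as a block is an alternative. The members and gene lists were chosen with earlier results of these data known. The text names every smORF called in a micelle comparison, up to 15 called in each direction on differentiation by adjusted p (1 per cluster), the smORF with the highest mean CPM of each role group, and the 4 with the smallest p in each micelle comparison. Others are named for contrast within a host gene, after their values were seen.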

Additional observations from a re-analysis of the deposited data

How the results depend on the processing

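The number of the 97 smORFs called on differentiation was 29, and it was 19 with DESeq2, 8 with 10 counts required in every library and 13 with 1 smORF per overlap cluster. Leaving out 1 library gave 13 to 32 calls, with 13 without the second control library. The median log2 fold change of -0.85 became -0.62 with 10 counts in every library, -0.36 with 1 smORF per cluster and -1.03 for factor genes alone, and ran from -0.98 to -0.70 with 1 library left out. With the replicate block, which the pairing of the differentiated libraries calls for in the micelle comparisons, each of these gave 0 calls, and no call of a named smORF changed in them. Differentiation gave 29 calls with the block. That fit also matched the undifferentiated libraries to the others by number, although these were taken to be unpaired. The micelle comparisons gave 0 calls under every alternative run. Their small medians moved: for micelles without lipid, 0.05 became -0.025 with library totals unscaled, 0.15 with 10 counts in every library and -0.088 to 0.042 with 1 library left out. For the lipid cargo (lipid micelles against micelles without lipid) leaving out 1 library gave -0.099 to 0.041. Shares of counts with 1 smORF per cluster were 0.598%, 0.498%, 0.454% and 0.450% in undifferentiated, control, micelle without lipid and lipid micelle libraries. Of 659 comparisons of a named smORF with an alternative, 607 kept direction and call, 49 lost the call, 2 gained it and 1 reversed: IEC_15714 of EIF4G2 between the micelles ran from -1.28 to 0.50 with 1 library left out, the latter without the second library of micelles without lipid. The fit of the 6 differentiated libraries alone was added after the data were seen. Low counts limit what could be called, since 3 counts equal 3.49 to 5.86 CPM.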
